A study of Homo sapiens with 3 samples.

Results

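HEK293T is a human embryonic kidney line transformed with adenoviral genes and carrying the SV40 large T antigen, and 3 independent biological replicates of it, all of 1 condition with no treatment named, were profiled by QuantSeq 3′ mRNA sequencing. GEO's molecule field names genomic DNA, but the titles, the kits and the methods of the study describe RNA. In QuantSeq oligo-dT primes the first strand, so that reads come from the end of an RNA that precedes its A tail or an internal run of A. The members described here are 9059 of the 61193 genes joined to GENCODE, namely those annotated as a processed pseudogene (8609) or a transcribed processed pseudogene (450) whose symbol does not follow the naming pattern of ribosomal protein copies. With 1 condition there was no comparison between groups, so the values below are levels in the 3 replicates, with the SD over them, and no test was run.

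A processed pseudogene is a DNA copy of a messenger RNA that was reverse transcribed and inserted elsewhere in the genome, in mammals mostly by the machinery of LINE-1 elements. Such a copy lacks the introns and usually the promoter of its parent gene, often ends in the remains of an A tail, and gathers substitutions and stop codons with age. Abundantly expressed housekeeping genes have left many copies, and copies that resemble their parent closely share stretches of sequence with its messenger RNA.

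The annotation named 5070 of the members after a parent (a symbol that ends in P and digits), and for 4746 of these the parent is a protein-coding gene in the same annotation, with 1725 distinct parents. In 95.0% of these 4746 pairs the named parent was also the best sequence match of the copy among protein-coding transcripts. A further 3656 members carried only an Ensembl identifier. Members had a median length of 556 bases, and 86.5% were annotated with 1 exon. No protein-coding transcript matched 311 of them.

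The label of the set, copies of genes other than ribosomal protein genes, was only partly met. For 646 members the best match was a cytosolic ribosomal protein gene over at least 50% of the length, and 639 of these had no symbol of their own, so the naming pattern could not catch them. These 646 took 50.1%, 49.8% and 56.7% of all counts on members in replicates 1, 2 and 3. On the TPM scale, which divides counts by transcript length, they took 65.5%, 66.4% and 68.8%. Each result below is therefore given for all 9059 members and, where it matters, for the 8413 members without a ribosomal protein match.

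2 copies are printed here beside the coding sequence of their parent, because they stood at high levels and differ from the parent at few positions. Capitals mark the bases at which copy and parent differ. All sequences are from the GENCODE transcripts on GRCh38, read 5′ to 3′ on the strand of the gene. SNRPGP2 lies at chr18:54406889-54407114 on the minus strand and its parent SNRPG, which encodes the Sm protein G of the spliceosome, at chr2:70281362-70293740 on the minus strand. ATP5F1EP2 lies at chr13:27945260-27945415 on the plus strand and its parent ATP5F1E, the epsilon subunit of the mitochondrial ATP synthase, at chr20:59025475-59032345 on the minus strand.
SNRPGP2: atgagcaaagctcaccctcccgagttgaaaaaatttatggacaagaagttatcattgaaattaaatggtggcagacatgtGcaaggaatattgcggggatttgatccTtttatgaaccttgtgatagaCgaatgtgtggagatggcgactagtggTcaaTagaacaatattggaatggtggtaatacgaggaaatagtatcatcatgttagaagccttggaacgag
SNRPG: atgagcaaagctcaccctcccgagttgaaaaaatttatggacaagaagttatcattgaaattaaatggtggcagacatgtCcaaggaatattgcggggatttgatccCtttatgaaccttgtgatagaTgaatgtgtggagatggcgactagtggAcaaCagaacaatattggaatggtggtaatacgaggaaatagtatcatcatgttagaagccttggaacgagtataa
ATP5F1EP2: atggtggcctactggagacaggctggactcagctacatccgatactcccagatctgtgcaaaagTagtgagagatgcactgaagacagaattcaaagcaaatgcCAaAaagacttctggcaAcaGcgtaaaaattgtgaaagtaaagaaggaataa
ATP5F1E: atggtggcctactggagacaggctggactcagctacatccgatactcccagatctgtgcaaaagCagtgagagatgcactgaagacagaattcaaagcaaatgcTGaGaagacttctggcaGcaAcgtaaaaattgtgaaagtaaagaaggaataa

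Counted from 1 at the A of the start codon, with the base of the parent first, SNRPGP2 carried the 5 substitutions C81G, C108T, T129C, A156T and C160T. The last of these put a TAG stop codon in frame after 53 codons, where the parent reads 76. ATP5F1EP2 differed at 6 of 156 positions, in codons 22, 35, 36, 41 and 42. Like its parent it read 51 codons before the stop.

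The 3 libraries held 7019253, 6262175 and 8521624 counts. A gene with no count in a library could have stood at up to 0.427, 0.479 and 0.352 CPM (counts per 1000000 counts) in replicates 1, 2 and 3 (3 counts of the total, counting error only). Genes of the mitochondrial genome took 9.59%, 5.70% and 25.8% of the counts and 22.8%, 15.4% and 44.2% of the TPM, so that replicate 3 stood apart. TPM has a fixed total, so a higher mitochondrial share lowers the TPM of the other genes in a replicate. The kidney line's identity was checked on markers of HEK293 cells. LIN28B (1136, 1093 and 875 counts), PAX2 (42, 59 and 54) and LHX1 (5, 4 and 6) were counted in every replicate, KRT8 had 17, 8 and 27 counts, VIM had 0, 6 and 5, and KRT18, NEFL and NEFM were listed at 0. Markers of liver, leukocytes and red cells (ALB, PTPRC, CD3E and HBB) were also listed at 0. So were GAPDH, ACTG1 and FTH1, which nearly all cells express, so that a 0 in these tables does not show that a gene is not expressed.

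Most copies were not detected at this depth. No count in any replicate fell on 5731 of the 9059 members (63.3%), and 932 (10.3%) had more than 3 counts in every replicate, against 19.8% of all genes joined. A mean TPM of at least 1 was reached by 1328 members (14.7%), against 21.7% of all genes. Both shares were below those over all genes. Of the 8413 members without a ribosomal protein match, 1010 (12.0%) reached a mean TPM of 1 and 281 reached 10. Of the 646 with such a match, 318 (49.2%) reached 1, and of the 1581 pseudogenes named after ribosomal protein genes 857 (54.2%) did. Of the 1328 members at or above 1 TPM, 429 had 3 or fewer counts in at least 1 replicate.

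Together the members held 2.21%, 2.41% and 1.89% of the counts in replicates 1, 2 and 3 (2.17% ± 0.261, SD, n = 3), and 8.51%, 9.60% and 6.18% of the TPM (8.10% ± 1.75). Replicate 3 was lowest on both scales. With the genes of the mitochondrial genome left out of the TPM total, the share of TPM was 11.0%, 11.4% and 11.1%, so that the replicates then lay close together. The members without a ribosomal protein match held 1.10%, 1.21% and 0.818% of the counts and 2.94%, 3.22% and 1.93% of the TPM. The signal was concentrated on few copies. The 10 highest members, all with a ribosomal protein match, held 41.5% ± 0.778 of the member TPM (SD, n = 3). Among members without such a match the 10 highest held 28.5% ± 1.41 and the 100 highest 75.4% ± 0.792.

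Of the 20 members with the highest mean TPM, 17 matched a ribosomal protein gene and had no symbol of their own. The highest, ENSG00000225475, is a fragment of 141 bases in the gene body of PLPP3 that resembles RPS2, a protein of the small ribosomal subunit, at 97.2% identity. Its TPM was 5992, 6881 and 3690 (5521 ± 1647). ENSG00000279483, with 75 bases identical to RPL41, reached 6077, 6667 and 3579 TPM (5441 ± 1639). Both were lowest in replicate 3. ENSG00000227615 (399 bases, RPS12, 4340 ± 753 TPM), ENSG00000180211 (RPL23, 3821 ± 502 TPM) and ENSG00000244313 (RPS10, 3800 ± 420 TPM) followed. ENSG00000213293, a copy of RPL28 at 1115 ± 108 TPM, shared only 4.45% of its 31-base words with any protein-coding transcript. 4 of the 20 were shorter than 100 bases, down to 59 bases for ENSG00000237875 (RPS3A, 1256 ± 134 TPM). The corresponding protein-coding genes had fewer counts than these copies. RPS2 had 15, 1 and 9, RPL41 24, 22 and 22, and RPS12 21, 8 and 31. RPS10 had 11, 13 and 36, and RPL23 845, 675 and 788. RPS2, RPL41, RPS12, RPS10 and RPL23 had 17, 6, 2, 9 and 11 listed transcripts, and counts had been assigned per transcript. Their lower counts therefore do not show that they were expressed below the copies.

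**Figure D1:**
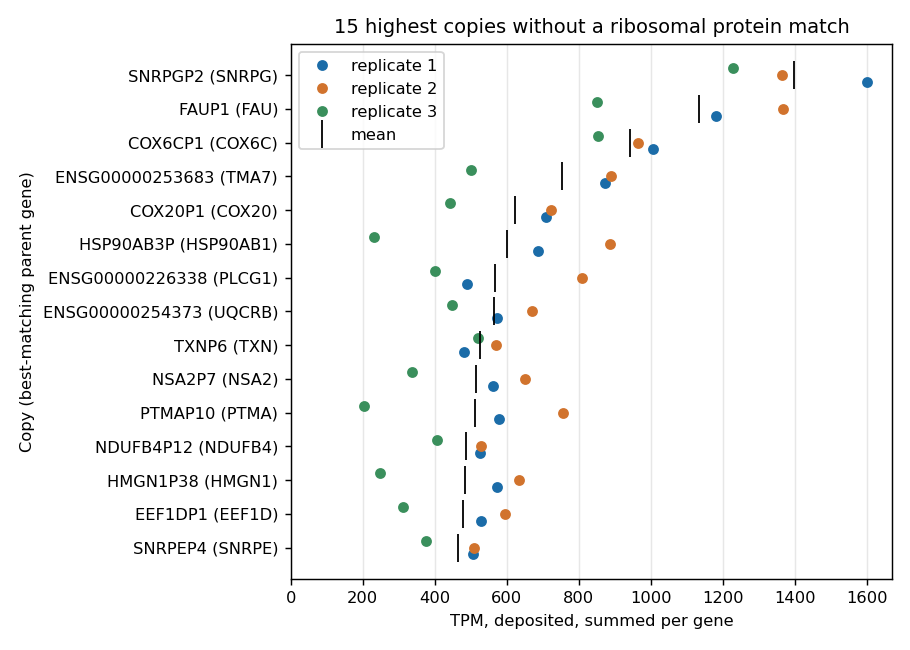
TPM in each of the 3 replicates (points, linear axis) and their mean (bars) for the 15 members with the highest mean TPM among those without a ribosomal protein match, with the best-matching parent gene in brackets. Means run from 464 to 1398 TPM, and replicate 3 is the lowest of the 3 in 14 of the 15 copies. The TPM total includes mitochondrial genes, which took 44.2% of the TPM in replicate 3 against 22.8% and 15.4% in replicates 1 and 2. The part of this share in the order of the replicates was not tested.

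Among members without a ribosomal protein match, SNRPGP2 stood highest, with 1642, 1183 and 1850 counts and 1601, 1365 and 1227 TPM (1398 ± 189). SNRPG itself, an Sm protein gene with 9 transcripts listed, was listed at 0 in all 3 replicates. The 3 replicates of SNRPGP2 were thus all high while those of the parent were all at 0. FAUP1 copies FAU, whose product is a ubiquitin-like protein fused to a protein of the small ribosomal subunit, and had 1181, 1366 and 851 TPM (1133 ± 261). By its symbol FAU was not counted here as a ribosomal protein gene. FAU had 1 count in replicate 1 and none in replicates 2 and 3.

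COX6CP1 was the next, with 981, 796 and 1222 counts and 1006, 966 and 852 TPM (941 ± 79.6). It derives from COX6C, a nuclear-encoded subunit of cytochrome c oxidase. It lies at chr16:11903923-11904137 on the minus strand, within the body of GSPT1 on the same strand (97.4 TPM) and outside its exons. COX6CP1 differed from the other high copies in sequence: it was 84.2% identical to COX6C and shared none of its 31-base words with a protein-coding transcript, whereas the other 14 of the 15 highest were at least 93% identical to their best match.

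COX20P1, within the body of TET1, copies an assembly factor of cytochrome c oxidase and had 709, 722 and 441 TPM (624 ± 158). HSP90AB3P, a copy of the cytosolic chaperone gene HSP90AB1, had 6765, 7376 and 3353 counts, the highest counts of the 15, and 686, 885 and 231 TPM (601 ± 335). Its value in replicate 3 was far below the others, and HSP90AB1 was listed at 0. ENSG00000253683 copies TMA7, a factor associated with translating ribosomes (754 ± 219 TPM). ENSG00000226338, of 78 bases, is identical to part of a transcript of PLCG1, which encodes phospholipase C gamma 1 (566 ± 215 TPM). Of the 20 bases after its end, 15 are A. A single best match was kept per copy, and whether another gene matched ENSG00000226338 equally well was not examined.

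All 15 had 1 exon and stood above their best-matching gene in mean TPM, and 6 of these genes were below 1 TPM. These genes had from 3 (TMA7) to 54 (EEF1D) listed transcripts, and counts had been assigned per transcript. The low values of the genes therefore do not show that they were expressed below their copies. 4 of the 15 kept an open reading frame over at least 90% of the length of the parent's protein at 80% identity or more, among them HMGN1P38 (100% of the length and 485 ± 208 TPM), a copy of the nucleosome-binding HMGN1. COX6CP1, COX20P1, NDUFB4P12 and SNRPEP4 lay in a gene body on the same strand, and of these COX20P1 and SNRPEP4 are also among those with such a frame.

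**Figure D2:**
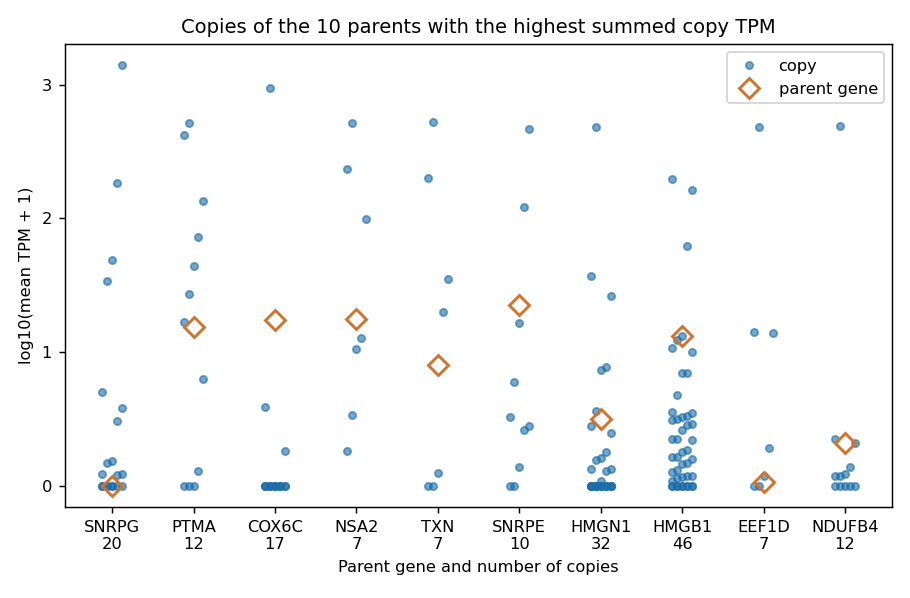
Mean TPM over 3 replicates, as log10(mean TPM + 1), of every copy (points) of the 10 parent genes with the highest summed copy TPM among parents with at least 3 copies, with the parent gene itself (diamond) and the number of copies under its name. For COX6C 1 of 17 copies holds 99.6% of the summed TPM and most others lie at 0, whereas 6 of the 7 copies of NSA2 and 8 of the 12 of PTMA lie at 1 TPM or more.

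Copies of 1 parent differed widely. Summed over all copies, SNRPG led with 1672 ± 245 TPM over 20 copies, of which 8 had no count and SNRPGP2 held 83.6% of the sum. COX6C (17 copies, 945 ± 76.6 TPM), EEF1D (7 copies, 506 ± 150), which encodes a subunit of the elongation factor complex, and NDUFB4 (12 copies, 489 ± 72.2), a complex I subunit, also rested on 1 copy each, with 99.6%, 94.7% and 99.3% on COX6CP1, EEF1DP1 and NDUFB4P12. HMGN1 (32 copies, 568 ± 239 TPM) had 85.4% on HMGN1P38. In other parents more copies contributed. PTMA, which encodes the chromatin-associated prothymosin alpha, had 8 of 12 copies above 3 counts in every replicate, led by PTMAP10 (513 ± 282 TPM), PTMAP2 (418 ± 236) and PTMAP9 (133 ± 76.4). Each of those was lowest in replicate 3. NSA2, a factor of large ribosomal subunit assembly, had 6 of 7, led by NSA2P7 (516 ± 162 TPM) and NSA2P1 (234 ± 101). HMGB1, which encodes a DNA-bending chromatin protein, had 17 of 46, led by HMGB1P5 (197 ± 76.2) and HMGB1P10 (161 ± 67.4). The sums for TXN and SNRPE were 777 ± 76.4 and 612 ± 101 TPM, with 67.5% on TXNP6 and 75.8% on SNRPEP4.

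The parents with the most copies differed as widely in their sums. PPIA, the cyclophilin A gene, had 89 copies, of which 13 reached 1 TPM, and its copies summed to 308, 137 and 69.8 TPM in replicates 1, 2 and 3. Replicate 1 carried much of this, with PPIAP22 at 528, 99 and 32 counts, and the mean of 172 TPM fell to 103 without it. HMGB1, with 46 copies, summed to 508 ± 188 TPM. The other parents with many copies were lower: HNRNPA1 with 72 copies summed to 11.6 ± 1.84 TPM, KRT18 with 66 to 12.6 ± 1.48, GAPDH with 64 to 57.9 ± 1.21, KRT8 with 51 to 1.86 ± 0.341, NPM1 with 49 to 33.5 ± 13.96, EEF1A1 with 45 to 71.0 ± 5.99 and CYCS with 42 to 59.4 ± 25.5. Of the KRT8 copies 44 had no count. BNIP3, with 43 copies, had 41 without a count, and BNIP3P1 alone carried 99.4% of the 23.4 ± 10.4 TPM.

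By the role of the parent, copies of translation factor genes had the highest share of counted copies among the lists examined: 47 of 178 (26.4%) had more than 3 counts in every replicate, led by EEF1DP1 (479 ± 148 TPM) and EIF1AXP1 (441 TPM). Copies of iron and redox genes (16 of 71, 22.5%) were led by TXNP6, a copy of thioredoxin, at 524 ± 44.8 TPM, and those of ubiquitin and proteasome genes (20 of 90, 22.2%) by UBE2SP2 at 91.7 ± 24.4 TPM. Chromatin genes had 54 of 319 (16.9%), led by PTMAP10, and respiratory chain genes 32 of 203 (15.8%), led by COX6CP1. RNA-binding protein genes had 27 of 185 (14.6%), led by SNRPGP2, and chaperones 28 of 194 (14.4%), led by HSPE1P2, a copy of the mitochondrial co-chaperonin gene (252 ± 83.3 TPM). Signalling genes had 9 of 86 (10.5%), led by RAC1P2 (183 ± 63.0 TPM). Cytoskeletal genes had 20 of 253 (7.91%), led by RDXP3 (26.2 ± 7.34 TPM), mitochondrial ribosomal protein genes 4 of 74 (5.41%), led by MRPS18CP7 (182 ± 67.6 TPM), and glycolytic genes 5 of 103 (4.85%), led by GAPDHP40 (24.2 ± 1.44 TPM). These shares stood beside 10.3% over all members and 19.8% over all genes.

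**Figure D3:**
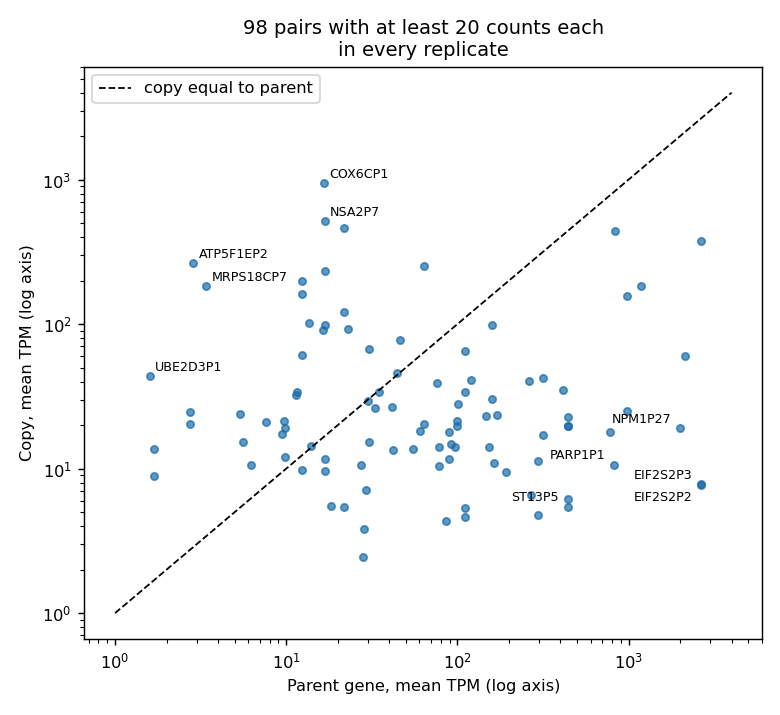
Mean TPM of the copy against mean TPM of its parent gene (both log axes) for the 98 pairs in which copy and parent each had at least 20 counts in every replicate, with the 5 lowest and 5 highest ratios named. The dashed line marks equal TPM, and 34 of the 98 copies lie above it, not all of them with more counts than the parent.

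In most of the 4746 pairs with a named protein-coding parent the copy was the lower of the pair. It was below the parent in TPM in every replicate in 2888 pairs (60.9%) and above it in 397 (8.36%), and in 597 pairs neither had a count. The share over all processed pseudogenes with a parent, ribosomal protein copies included, was 11.5%. Of the 397 copies above their parent, 154 had a parent without any count, and 99 had a parent with more than 3 counts in every replicate. In CPM, which does not divide by length, the copy was above its parent in every replicate in 341 pairs. Counts had been assigned per transcript. Among parents with 1 listed transcript the median mean TPM was 48.8 and the copy was above the parent in 3.47% of 202 pairs. With 2 to 5 listed transcripts the median was 2.32 and the copy was above in 7.29% of 1290 pairs. With 6 to 10 the values were 1.42 and 8.97% of 1662 pairs, and with 11 or more 1.77 and 9.23% of 1592 pairs. How reads that overlap several transcripts were treated is not given in the sources used here, and the part of the transcript number in these pairs was not tested.

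In the 98 pairs with at least 20 counts on both sides the median ratio of copy to parent TPM was 0.322, with quartiles of 0.132 and 2.58. Reads came from the ends of RNAs while TPM divides by transcript length, so a short copy can stand above a parent with more counts. GMPSP1, for example, had 254, 272 and 230 counts against 981, 907 and 925 for GMPS, at a ratio of 4.07. ATP5F1EP2 had the highest ratio. It had 170, 176 and 265 counts against 44, 39 and 57 for ATP5F1E, which is 263 ± 28.0 TPM against 2.87 ± 0.310, a ratio of 91.8 that lay between 87.6 and 96.6 in the 3 replicates. COX6CP1 followed at 56.9 (53.5 to 59.4). The ratio of MRPS18CP7, from a gene of the small mitochondrial ribosomal subunit, was 53.7 but spread from 23.2 to 87.7. NSA2P7 stood at 30.7 (25.5 to 33.3) and UBE2D3P1, from a ubiquitin-conjugating enzyme gene, at 27.3 (19.5 to 51.1). In counts NSA2P7 had 1309, 1281 and 1151 against 334, 303 and 360 for NSA2. UBE2D3P1 had 85, 99 and 89 against 31, 20 and 48 for UBE2D3. ATP5F1E, COX6C, MRPS18C, NSA2 and UBE2D3 had 3, 11, 9, 5 and 33 listed transcripts.

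At the other end stood EIF2S2P2 and EIF2S2P3, copies of the beta subunit of initiation factor eIF2. They had 40, 37 and 29 and 24, 45 and 43 counts, while EIF2S2 had 32821, 33182 and 30324, which gives ratios of 0.00291 and 0.00294. EIF2S2 had 1 listed transcript. NPM1P27, from the nucleolar protein gene NPM1, reached 0.00951 of its parent, ST13P5, from an HSP70-interacting co-chaperone gene, 0.0123, and PARP1P1, from the poly(ADP-ribose) polymerase gene, 0.0129. No replicate of these 5 copies came near its parent. NPM1, ST13 and PARP1 had 12, 6 and 9 listed transcripts.

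**Figure D4:**
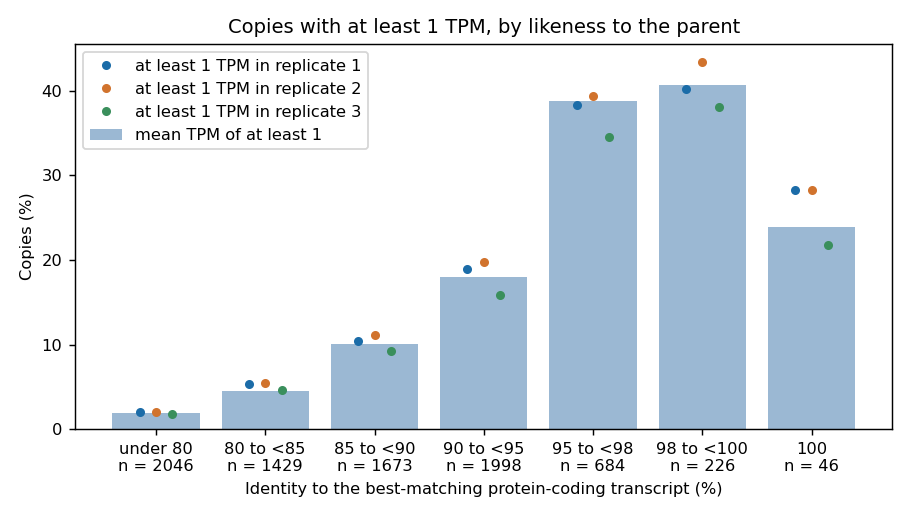
Percent of members without a ribosomal protein match that had a mean TPM of at least 1 (bars) or at least 1 TPM in a single replicate (points), by identity to the best-matching protein-coding transcript, with the number of copies in each class. The bars rise from 1.96% under 80% identity to 40.7% between 98% and 100%, and stand at 23.9% for identical copies.

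Levels went with likeness to the parent. Of 2046 members without a ribosomal protein match under 80% identity, 1.96% reached a mean of 1 TPM. This percentage was 4.55% between 80% and 85%, 10.1% between 85% and 90%, 18.0% between 90% and 95%, 38.7% between 95% and 98% and 40.7% between 98% and 100%. The order was the same in each of the 3 replicates. Among the 46 members identical over their match, 11 (23.9%) reached 1 TPM. The median identity was 83.8% for members without a count and 95.5% for those with at least 10 TPM, with interquartile ranges of 77.6% to 90.1% and 93.1% to 97.6%.

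Several features of a copy moved with level in the same way. The median share of 31-base words found in protein-coding transcripts was 0.282% for members without a count, and it was higher in those between 1 and 10 TPM (14.8%) and in those with at least 10 TPM (30.5%). An open reading frame close to that of the parent, as defined above, was kept by 54 of 5558 members without a count (0.972%) and by 45 of the 281 with at least 10 TPM (16.0%). The match ended within 3 bases of the parent's stop codon in 41.3% of members without a count and in 81.5% of those with at least 10 TPM. In the latter, at least 24 of the 30 genomic bases after the annotated end were those that follow in the parent's transcript in 218 of 267 members (81.6%), against 1566 of 3809 (41.1%) without a count. In most members with at least 10 TPM the annotated copy thus stopped with the coding sequence, while the genome went on with bases of the parent's transcript beyond it. Which of these features goes with the level apart from identity was not tested.

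The share of members in a gene body on the same strand differed less between the classes. Of members without a count 16.8% lay in a gene body on the same strand, against 21.7% of those with at least 10 TPM. The genes that hold them differed more, since 33.4% and 62.3% of these had a mean TPM of at least 1. Over all 1328 members with at least 1 TPM, 22.1% lay in a gene body on the same strand, against 16.9% of the members without a count, and 30 overlapped an exon of another gene on the same strand. On the other strand 66 overlapped an exon, 9 of them counted among the 30 as well, and since the strand setting of the counting is not given, their reads cannot be told apart from those of the overlapping gene. GC content was alike, with medians of 45.4% without a count and 45.6% at 10 TPM or more.

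Stretches rich in A were searched only at the annotated end. At least 14 A in the last 20 bases of a copy or in the 20 bases after it were found in 42 of 5731 members without a count (0.733%) and in 25 of the 1328 with at least 1 TPM (1.88%). The search did not reach the end of the parent's transcript, which in members without a ribosomal protein match lay a median of 1218 bases beyond the match without a count and 798.5 bases beyond it at 10 TPM or more, so that stretches farther on were not examined. ENSG00000226338 was the highest of those found among members without a ribosomal protein match. UBE2V1P2, a copy of a ubiquitin-conjugating enzyme variant gene with 55, 35 and 29 counts (19.4 ± 8.91 TPM), is shown as an example of how such an end looks. The 30 bases after it, at chr3:175718201-175718230 on the minus strand, are printed with A in capitals, and 26 of them are A.
UBE2V1P2, bases after its end: ActAAtcAAAAAAAAAAAAAAAAAAAAAAA

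Members that share few words with protein-coding transcripts were looked at apart. Words shared with other pseudogenes or with noncoding RNAs were not examined. Of 5103 members without a ribosomal protein match that shared less than 5% of their 31-base words with protein-coding transcripts, 94 had more than 3 counts in every replicate and 20 had at least 10 TPM. These 2 shares were 8.43% and 3.34% over all members without a ribosomal protein match, and 19.8% and 8.93% over all genes. The 5103 members held 6.12%, 5.41% and 8.18% of the counts on members without a ribosomal protein match. COX6CP1 led, followed by ENSG00000270558, which resembles the heterochromatin protein gene CBX3 at 78.4% identity, with 153, 143 and 59.5 TPM (119 ± 51.4). ENSG00000229447 (GTF2A2, a subunit of the general factor TFIIA) stood at 46.0 ± 11.7 TPM, ENSG00000235859 (PSMC5, a proteasome ATPase) at 35.6 ± 3.57 TPM and TXNP1 at 34.2 ± 8.85 TPM. ENSG00000229447 lies in the body of SNRNP40, which had 21.3 TPM. Among those with a ribosomal protein match, ENSG00000240975 (RPL18) stood at 166 ± 47.3 TPM and ENSG00000229567 (RPL39) at 114 ± 7.50 TPM.

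The 450 members annotated as transcribed reached 1 TPM in 79 cases (17.6%), against 14.5% of the 8609 without that annotation and 21.7% of all genes. At 10 TPM the order was reversed, with 4.22% against 4.74%. NACA4P, which resembles genes of the nascent polypeptide-associated complex, led with 513, 554 and 286 TPM (451 ± 144). ENSG00000237550 (RPL9) followed with 253, 713 and 180 TPM, HMGB1P5 with 210, 266 and 116 TPM and PTMAP5 with 61.3, 99.0 and 53.0 TPM. ENSG00000196656 is described below.

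Of 27 members chosen because they are often discussed as RNAs, 7 had more than 3 counts in every replicate and 14 had none. Over all members these shares were 10.3% and 63.3%, and over all genes 19.8% and 57.1%. The DUXAP8 entry among the 14 lies on the same strand within another entry of that symbol, which had 32.3 TPM. DUXAP10 and DUXAP9, copies of the double homeobox gene DUXA, had 379, 326 and 486 counts (19.1 ± 1.98 TPM) and 138, 113 and 119 counts (21.6 ± 5.72 TPM), while DUXA had at most 1. HSPB1P1 stood at 85.9 ± 15.8 TPM. PDIA3P1 had 113, 121 and 83 counts (15.2 ± 6.43 TPM), PTTG3P 7, 35 and 9 and DHFRP1 6, 15 and 8, both highest in replicate 2. DUXAP9, DUXAP10 and PDIA3P1 each overlap an exon on the other strand, and PDIA3P1 one of another gene on its own strand as well. SUMO1P3, LGMNP1 and the copies of POU5F1 in this list had none.

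By the length of the open reading frame against the parent's protein, ENSG00000220130 ranked first among members with at least 10 TPM at 149%. Its identity to the SERF2 protein, taken over the longer sequence, was only 20.5%, and whether it reads in the frame of SERF2 was not examined. FAUP1 (103%) and EIF3FP3 (101%), a copy of an initiation factor eIF3 subunit gene at 31.8 ± 3.05 TPM, kept frames at 92.7% and 97.0% identity on this measure. ENSG00000219928 (RPS29) and ENSG00000227615 (RPS12) kept frames of 102% and 100%.

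**Figure D5:**
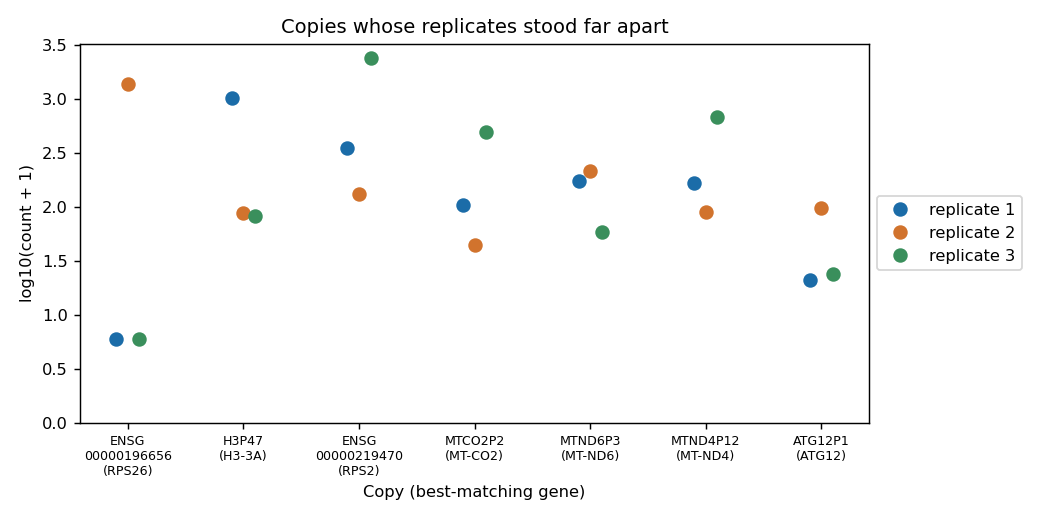
Counts, as log10(count + 1), in each of the 3 replicates for 4 members in which 1 replicate stood at least 5 times above the middle one and for 3 members that resemble mitochondrial genes. ENSG00000196656 and ATG12P1 are high in replicate 2, H3P47 in replicate 1 and ENSG00000219470 in replicate 3.

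Levels in the replicates went together. Over the 932 members with more than 3 counts in every replicate, Pearson's r of log2(TPM + 1) was 0.965, 0.961 and 0.942 and Spearman's rho 0.943, 0.933 and 0.905 between replicates 1 and 2, 1 and 3, and 2 and 3, as a description across genes that share libraries. Single members stood apart. In 4 of 357 members with at least 50 counts in some replicate, 1 replicate stood at least 5 times above the middle one in CPM (1.12%, against 0.385% of all such genes). ENSG00000196656, a transcribed copy whose 348 bases are identical to RPS26, had 5, 1357 and 5 counts. H3P47, a copy of the histone gene H3-3A, had 1007, 87 and 81, and ENSG00000219470, an RPS2 copy in XPO5, had 346, 129 and 2381. ATG12P1, a copy of an autophagy gene, had 20, 97 and 23. The high replicate was replicate 2, 1, 3 and 2 in turn. Whether these come from the cells or from the libraries was not tested.

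Copies of mitochondrial DNA formed a group of their own. 251 members matched a gene of the mitochondrial genome best, and their counts summed to 669, 464 and 1742, or 95.3, 74.1 and 204 CPM. The mitochondrial genes themselves were at 95931, 57025 and 258360 CPM, likewise lowest in replicate 2 and highest in replicate 3. Of the 251, 10 had more than 3 counts in every replicate, beside shares of 10.3% over all members and 19.8% over all genes. Of these 10, 9 were highest in replicate 3 in CPM, among them MTCO2P2 (103, 43 and 487 counts) and MTND4P12 (166, 89 and 677 counts). How many of all members with such counts were highest in replicate 3 was not counted. MTND6P3, a copy of MT-ND6 in the body of KIAA0825, went the other way with 171, 215 and 57 counts. MT-ND6 itself had 2764, 1194 and 8349 counts.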

How the data were processed

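RNA of 3 HEK293T replicates was sequenced with the QuantSeq 3′ mRNA kit. Per the labels, the authors trimmed reads with Trimmomatic 0.38.0, aligned them to hg38 with HISAT2 2.2.1 and counted them per transcript with featureCounts 2.2.1. The deposited tables hold read counts, which were not normalised, the transcript length, and TPM values made by the authors from these. The annotation release, the strand setting and the treatment of reads that overlap several transcripts or map to several places are not given in the sources used here, and near-identical copies may share reads.

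Transcripts were joined to GENCODE release 44 without version numbers: 223558 of 247541 matched, and 161 second pseudoautosomal copies were left out. Counts and TPM were summed per gene. Copies were matched to canonical protein-coding transcripts with blastn 2.17.0 (plus strand, E-value of at most 1e-10). Shared words of 31 bases were counted over all protein-coding transcripts. The calculations (Python 3.11.15, pandas 2.3.3) were tested on simulated data. Values are means ± SD over replicates. Members and lists were chosen with earlier results of these data known. Named were the 20 highest members, the 10 parents with the highest summed TPM over at least 3 copies, the 5 highest transcribed copies, the 5 highest with under 5% shared words, the 5 lowest and 5 highest ratios to the parent, the known copies, the highest of each list, and the 5 longest reading frames against the parent (at least 10 TPM). The 15 highest and the copies with few shared words among members without a ribosomal protein match, the parents with the most copies, the mitochondrial copies, the A-rich ends and the copies with replicates far apart were added after values were seen. A few items that this rule names are not reported here.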

Additional observations from a re-analysis of the deposited data

How the results depend on the processing

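No paired analysis was possible because only 1 group of samples was studied. The 1328 members at a mean TPM of at least 1 became 3328 at any TPM above 0, 427 at 10 TPM and 867 at a mean of 1 CPM. The 932 members above 3 counts became 1651 above 0 and 571 above 10. Without mitochondrial genes the members held 2.52% of counts and 11.1% of TPM. Without members with a ribosomal protein match, a setting chosen for most results after seeing the data, they held 1.04% and 2.70%, the 10 highest held 28.5% of member TPM, and the median of shared words, the percent in a gene body and the percent with an A-rich end were 18.8%, 23.2% and 2.38%. By counts the 10 highest held 33.1%. Requiring over 3 counts on the parent left 99 of the 397 copies above it. The median of shared words was 0% with 75-base words and 25.2% at 10 TPM. At 10 TPM, 21.3% lay in a gene body and 1.17% had an A-rich end, and 2.26% overlapped an exon. Without 1 replicate the 9 values ranged over 1297 to 1376 members, 1001 to 1041 members, 2.05% to 2.31%, 7.34% to 9.06%, 41.1% to 41.9%, 432 to 461 pairs, 14.6% to 15.4%, 22.2% to 22.5% and 1.68% to 1.96%, in the order above, with the copies above the parent sixth and shared words, gene bodies and A-rich ends last. Depth limits what can be said of copies at 0, since 3 counts were worth 0.352 to 0.479 CPM.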
